A study of Mus musculus with 15 samples.

Results

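The 8 genes described here link mouse embryonic stem cells to the oocyte or to germ cells. Among them, Dppa3 was lower and Khdc3 was higher with every hairpin tested, against Tet1 or against Sin3A. Prdm14 was higher with shTet1#4, Tcl1 was higher with shTet1#4, and Ooep was lower with shTet1#5. Prdm14 just missed the threshold with shTet1#5 (limma adjusted p = 0.0526). The shTet1#4 call held under 13 of 16 alternatives for Prdm14 and under 15 of 16 for Dppa3. Between the Tet1 hairpins themselves 0 of the 8 genes and 0.141% of all probe sets were called, though Tcl1 passed there under 2 of 16 alternatives. With all arrays in the fit, Dppa2, Dppa4 and Dppa5a did not pass against a scrambled hairpin. Dppa4 passed with both Tet1 hairpins under 1 of 16 alternatives, the one that left out a pair of arrays that deviated alike.

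The 8 genes were Dppa2, Dppa3, Dppa4, Dppa5a, Khdc3, Ooep, Tcl1 and Prdm14, taken from 21212 probe sets, of which 18786 carried 1 gene symbol. They were selected by gene symbol, and the probe set was to be chosen by the highest mean level over all 15 arrays. Each of the 8 had a single probe set, so that mean decided nothing. The list was drawn up with earlier results of these arrays in view, the low Dppa3 level with both Tet1 hairpins among them. The p-values given for the 8 genes are therefore their places in a fit over all probe sets and are no independent support for the choice.

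All groups were E14TG2a.4 cells, a feeder-independent mouse embryonic stem cell line used at passage 17 and kept in serum with leukaemia inhibitory factor (LIF). Every group, the controls included, had been transduced with a PLKO.1 lentivirus for a short hairpin RNA, and selection with 2 µg per ml of puromycin began 36 hours later and lasted 72 hours. The first set of arrays held shTet1#4, shTet1#5 and a scrambled hairpin (shScr), and the second held shSin3A and its own shScr, with 3 arrays in each of the 5 groups. The knockdowns were partial, each was made in 1 cell line, and the Sin3A group rests on 1 hairpin. The labels do not state whether the 3 arrays of a group stem from different cultures. The p-values therefore cover array-to-array spread alone, and that spread may be technical.

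Dppa3, also called Stella or PGC7, is an oocyte-supplied protein that protects DNA methylation in the early embryo and restrains the methylation factor UHRF1. Khdc3 (FILIA) and Ooep (FLOPED) belong to the subcortical maternal complex of the mouse oocyte, and Dppa5a (ESG1) encodes a related KH-domain protein that binds RNA. Dppa2 and Dppa4 encode partner proteins with SAP domains that bind chromatin in stem cells and switch on genes of the 2-cell embryo. Prdm14 encodes a zinc-finger protein that specifies primordial germ cells and holds down FGF signalling and de novo DNA methyltransferases in naive stem cells. Tcl1 encodes a coactivator of the AKT kinases. Tet1 encodes an enzyme that oxidises 5-methylcytosine, and SIN3A, which binds TET1 in these cells, holds together a complex with histone deacetylases. Setting both knockdowns beside each other asks which genes respond to the loss of either protein.

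Promoter sequence was at hand in RefSeq tables (GRCm38.p6) for 3 of the 8 genes, Khdc3, Ooep and Tcl1. The 250 bases before each start are shown because CpG is the site of the methylation that TET enzymes oxidise. Capitals mark CpG. The arrays measured no methylation, and no build is named for their values. The Khdc3 sequence lies at chr9:73102148-73102397 (+ strand), the Ooep sequence at chr9:78378589-78378838 (− strand) and the Tcl1 sequence at chr12:105222738-105222987 (− strand), each printed 5′ to 3′ on the gene's strand.
Khdc3: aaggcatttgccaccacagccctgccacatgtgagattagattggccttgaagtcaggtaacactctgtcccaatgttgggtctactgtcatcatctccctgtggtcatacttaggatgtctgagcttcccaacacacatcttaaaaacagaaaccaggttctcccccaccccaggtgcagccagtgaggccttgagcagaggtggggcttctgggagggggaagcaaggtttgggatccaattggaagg
Ooep: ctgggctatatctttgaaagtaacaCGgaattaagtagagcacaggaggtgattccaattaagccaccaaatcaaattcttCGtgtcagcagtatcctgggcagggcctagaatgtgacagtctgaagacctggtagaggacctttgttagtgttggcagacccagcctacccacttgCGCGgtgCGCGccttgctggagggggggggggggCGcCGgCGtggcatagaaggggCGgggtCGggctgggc
Tcl1: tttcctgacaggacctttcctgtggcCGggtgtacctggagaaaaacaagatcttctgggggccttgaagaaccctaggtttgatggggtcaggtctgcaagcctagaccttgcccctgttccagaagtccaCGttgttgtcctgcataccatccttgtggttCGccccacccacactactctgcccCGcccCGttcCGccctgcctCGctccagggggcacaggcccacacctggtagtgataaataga

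The Khdc3 promoter window held 0 CpG, as did 7.9% of the 32851 promoter windows of that table. Its GC content of 52.4% equalled the median over all windows. The Ooep window held 11 CpG and the Tcl1 window 7, against a median of 6. Both strands were searched for 6 motifs. The GC box GGGCGG was found once in the Ooep window, at position 232 from its 5′ end, and 2 times in the Tcl1 window, on the opposite strand at positions 187 and 197. It occurs in 32.7% of all windows and was not found in the Khdc3 window. The octamer ATGCAAAT (1.6% of all windows), the ESRRB motif AAGGTCA (4.1%), the E-box CACGTG (6.0%), the PRDM14 motif GGTCTCTAA (0.2%) and the TFAP2 motif GCCNNNGGC (13.7%) were not found in these 3 windows. The GC box contains a CpG, so its matches overlap the bases in capitals.

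The data are log2 levels as the authors deposited them. Mean levels per array ran at 7.08 to 7.11 for the Tet1 set and at 8.09 for the Sin3A set. Levels are therefore set against each other only within a set, for 1 gene or for the mean of 1 marker list at a time. Such a list mean can rest on few of its genes. Across probe sets, which are not replicates of each other, arrays of a group correlated at r = 0.994 to 0.998. Replicate 2 of shScr and replicate 2 of shTet1#4 deviated alike from their groups (r = 0.517 between their deviations). Tests of the 8 genes that use the Tet1 set were therefore also run without both arrays. Values of the targeted genes, the gene and marker lists, the most alike genes and the neighbours are given with all arrays only. The targeted transcripts were lower. Tet1 averaged 10.42 ± 0.03 with shTet1#4 and 10.09 ± 0.14 with shTet1#5, against 12.20 ± 0.02 with shScr (SD, n = 3 each). Sin3a averaged 9.38 ± 0.04 with shSin3A, against 10.93 ± 0.06 with shScr (SD, n = 3 each). Sin3a was also lower with shTet1#4 (-0.27, limma adjusted p = 0.0147) and with shTet1#5 (-0.24, limma adjusted p = 0.0219). Tet1 was higher with shSin3A (0.31, limma adjusted p = 0.00679). The part of these changes in the values of the 8 genes was not tested. Of 20 stem cell markers that were listed, 0 lay in the lowest 25% of probe set levels of the Tet1 set, and the same held for 0 of the 8 genes. Of 20 measured oocyte identity genes, 14 lay in that range, among them Zp1, Zp2, Nobox and Bmp15. The deposited values carry no detection call, so whether a dim gene was expressed was not determined. The name "maternal-effect" thus refers here to a role in the oocyte, while the RNA came from stem cells.

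A gene was called when its limma p, adjusted over all 21212 probe sets, was under 0.05. With shTet1#4, 4 of the 8 genes were called (50.0%, against 11.6% of all probe sets), 3 higher and 1 lower. With shTet1#5, 3 were called (37.5%, against 13.8%), 1 higher and 2 lower. The 8 genes were chosen with earlier results of these arrays in view, so their shares do not test for an excess. Both Tet1 comparisons use the same 3 shScr arrays. Called with both and in the same direction were 2 of the 8 genes (against 8.81% of all probe sets), Dppa3 and Khdc3. With shSin3A, 2 of the 8 were called (against 24.8% of all probe sets), 1 higher and 1 lower, a share close to that of all probe sets. The median log2 difference of the 8 genes was -0.07, -0.08 and -0.03 with shTet1#4, shTet1#5 and shSin3A, beside medians of -0.0032, -0.0044 and 0.0063 over all probe sets. The genes went different ways, so this median describes none of them.

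**Figure D1:**
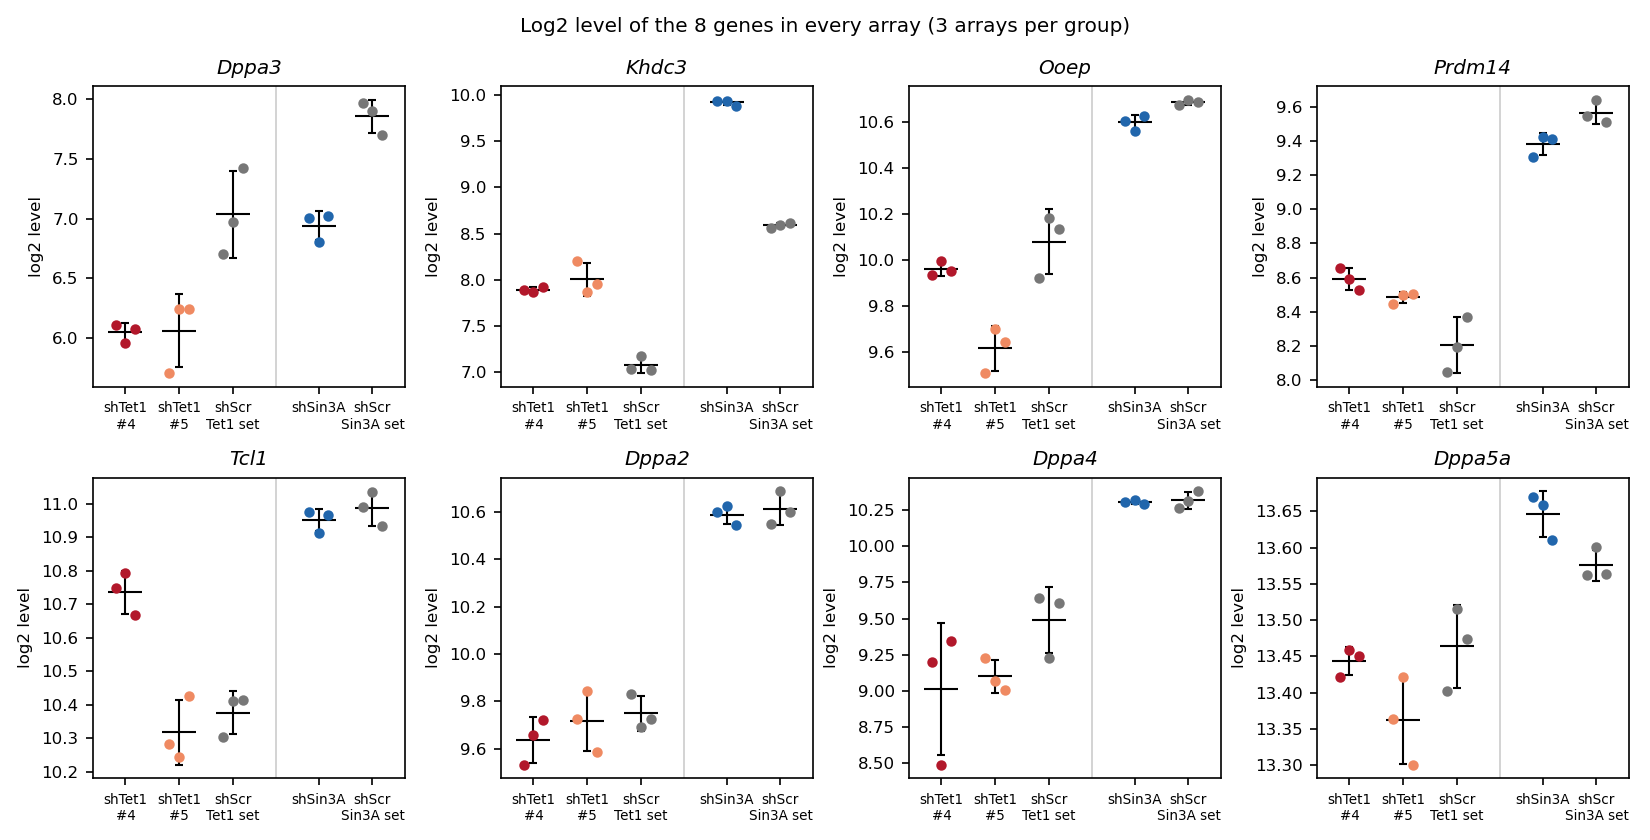
Log2 level (vertical axis, own scale in each panel) of the 8 genes in each of the 15 arrays. Points are arrays, bars give the mean and SD of 3 arrays, and the grey line parts both sets, whose levels are not comparable. All knockdown arrays lie below their shScr arrays for Dppa3 and above them for Khdc3.

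Dppa3 had log2 levels of 6.11, 5.96 and 6.08 with shTet1#4 and 5.71, 6.24 and 6.24 with shTet1#5, against 6.71, 6.98 and 7.43 with shScr. All 6 knockdown arrays lay below all 3 control arrays, and the control arrays were the most spread of the groups, with an SD of 0.37. The differences were -0.99 ± 0.19 with shTet1#4 (log2 ± SE, 1.98-fold lower, limma adjusted p = 0.00743) and -0.97 ± 0.19 with shTet1#5 (1.96-fold lower, limma adjusted p = 0.00704). Without the pair of arrays that stood apart, the shTet1#4 difference was -0.97 and its adjusted p of 0.0577 missed the threshold. Leaving out shScr replicate 3, the highest array, gave differences of -0.79 and -0.78, both still called.

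In the Sin3A set, Dppa3 stood at 7.004, 6.80 and 7.02 with shSin3A, against 7.97, 7.90 and 7.70 with shScr. Again the groups did not overlap, and the gap between them was 0.68. The difference was -0.91 ± 0.09 (1.88-fold lower, limma adjusted p = 3.79e-04), and it stayed called in all 12 alternatives run. The mean Tet1 effect minus the Sin3A effect was -0.07 for Dppa3, with a 95% interval of -0.53 to 0.40 and an adjusted p of 0.879. That interval leaves room for an effect of Tet1 hairpins larger or smaller than that of shSin3A. In these bulk samples, fewer cells with Dppa3 RNA and less Dppa3 RNA per cell cannot be told apart.

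Khdc3 moved the other way. Its levels were 7.89, 7.86 and 7.92 with shTet1#4 and 8.21, 7.86 and 7.95 with shTet1#5, against 7.03, 7.18 and 7.02 with shScr. The lowest knockdown array lay 0.69 above the highest control array. The differences were 0.82 ± 0.09 with shTet1#4 (1.76-fold higher, limma adjusted p = 3.45e-04) and 0.93 ± 0.09 with shTet1#5 (1.91-fold higher, limma adjusted p = 1.69e-04).

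With shSin3A, Khdc3 reached 9.94, 9.93 and 9.89, against 8.57, 8.60 and 8.61 with shScr. This was the widest separation among the 8 genes in this set, with a gap of 1.27 between groups. The difference was 1.33 ± 0.05 (2.51-fold higher, limma adjusted p = 1.28e-05). Khdc3 was called in every comparison with shScr under each of the 16 alternatives run for each Tet1 hairpin and the 12 run for shSin3A. The Tet1 effect was smaller than the Sin3A effect by 0.45 on the log2 scale (difference -0.45 ± 0.10, limma adjusted p = 0.00449). Knockdown and array set cannot be told apart in that difference, and the sets were normalized separately.

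Ooep, a partner of Khdc3 in the subcortical maternal complex, was called with shTet1#5 alone. It measured 9.93, 9.99 and 9.95 with shTet1#4 and 9.51, 9.70 and 9.64 with shTet1#5, against 9.92, 10.18 and 10.13 with shScr. The shTet1#5 arrays lay below all others of the set, while the shTet1#4 arrays overlapped the controls. The shTet1#5 difference was -0.46 ± 0.08 (1.38-fold lower, limma adjusted p = 0.00436), and the shTet1#4 difference of -0.12 did not pass (adjusted p = 0.446). The difference between the hairpins themselves, -0.34 ± 0.08, had an adjusted p of 0.194. With shSin3A the levels were 10.60, 10.56 and 10.62, against 10.67, 10.70 and 10.69 with shScr. These groups did not overlap, but the difference of -0.09 had an adjusted p of 0.223. Dppa5a, a KH-domain gene next to Ooep in the RefSeq order of measured genes, had levels of 13.42 to 13.46 with shTet1#4 and 13.30 to 13.42 with shTet1#5, against 13.40 to 13.52 with shScr. It spanned 13.61 to 13.67 with shSin3A, against 13.56 to 13.60 with shScr. Its differences of -0.02, -0.10 and 0.07 did not pass (adjusted p = 0.886, 0.328 and 0.334), and the 95% intervals all lay between -0.23 and 0.18.

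Prdm14 had levels of 8.65, 8.59 and 8.52 with shTet1#4 and 8.45, 8.50 and 8.51 with shTet1#5, against 8.04, 8.20 and 8.37 with shScr. All 6 Tet1 knockdown arrays were above the controls. The difference with shTet1#4 was 0.39 ± 0.08 (1.31-fold higher, limma adjusted p = 0.0142), and that with shTet1#5 was 0.28 ± 0.08, with an adjusted p of 0.0526 that just missed the threshold. The shTet1#4 call was lost without replicate 1 of that hairpin (adjusted p = 0.0616), without the pair that stood apart (0.0692) and with only both compared groups in the fit (0.0527). The shTet1#5 difference passed in 3 of 16 alternatives: without shScr replicate 3, the highest control (0.36, adjusted p = 0.0171), without the lowest 25% of probe sets (0.0364) and with a variance trend and robust moderation (0.0444). Its adjusted p reached 0.144 in the others.

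In the Sin3A set, Prdm14 lay on the other side of its control. It had 9.31, 9.42 and 9.41 with shSin3A, against 9.55, 9.64 and 9.51 with shScr. The groups did not overlap, and the difference of -0.19 ± 0.06 had an adjusted p of 0.0548. It passed when the lowest 25% of probe sets was left out (0.0351) and with a variance trend and robust moderation (0.034). The test of the difference itself did pass: the mean Tet1 effect exceeded the Sin3A effect by 0.52 ± 0.10 (95% interval 0.31 to 0.73, limma adjusted p = 0.00167). It passed in all 21 alternatives run. Of the 8 genes, 2 were called in this contrast, Prdm14 and Khdc3, against 20.0% of all probe sets. Again, knockdown and array set cannot be told apart.

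Tcl1 was called with shTet1#4 alone. It had 10.75, 10.79 and 10.67 with shTet1#4, and 10.28, 10.24 and 10.43 with shTet1#5, against 10.30, 10.41 and 10.42 with shScr. The shTet1#4 arrays lay above all others of the set, and the shTet1#5 arrays overlapped the controls. The difference was 0.36 ± 0.07 with shTet1#4 (1.28-fold higher, limma adjusted p = 0.00829) and -0.06 with shTet1#5 (adjusted p = 0.673). The direct contrast of shTet1#5 with shTet1#4 gave -0.42 ± 0.07 and an adjusted p of 0.0705. In that contrast 0 of the 8 genes and 0.141% of all probe sets were called (30 probe sets, and 1836 at an unadjusted p under 0.05). Tcl1 passed there when the lowest 25% of probe sets was left out (adjusted p = 0.0436) and with a variance trend and robust moderation (0.0307). With shSin3A, Tcl1 levels of 10.98, 10.91 and 10.96, against 10.99, 11.03 and 10.93 with shScr, overlapped (difference -0.04, adjusted p = 0.681).

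The chromatin partners Dppa2 and Dppa4, neighbours on chromosome 16, differed in their spread. Dppa2 had levels of 9.53 to 9.72 with shTet1#4 and 9.59 to 9.85 with shTet1#5, against 9.69 to 9.83 with shScr. It spanned 10.54 to 10.62 with shSin3A, against 10.55 to 10.69 with shScr. Its differences of -0.11, -0.03 and -0.02 did not pass (adjusted p = 0.489, 0.877 and 0.809). Dppa4 measured 9.20, 8.49 and 9.35 with shTet1#4 and 9.23, 9.07 and 9.01 with shTet1#5, against 9.64, 9.22 and 9.61 with shScr. Replicate 2 of shTet1#4 and replicate 2 of shScr, the arrays that deviated alike, were the lowest of their groups. With all arrays, the Dppa4 differences of -0.48 and -0.39 did not pass (adjusted p = 0.186 and 0.27). Without that pair of arrays they were -0.35 and -0.52 and both passed (adjusted p = 0.0483 and 0.00596). Neither passed in any other of the 16 alternatives run for each hairpin. The shTet1#4 difference ran from -0.64 to -0.22 over the 16, and its smallest size, -0.22 (adjusted p = 0.372), came from leaving out shTet1#4 replicate 2 alone. The shTet1#5 difference ran from -0.52 to -0.32. With shSin3A, Dppa4 spanned 10.29 to 10.32, against 10.26 to 10.38 with shScr, a difference of -0.01 with a 95% interval of -0.13 to 0.11.

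**Figure D2:**
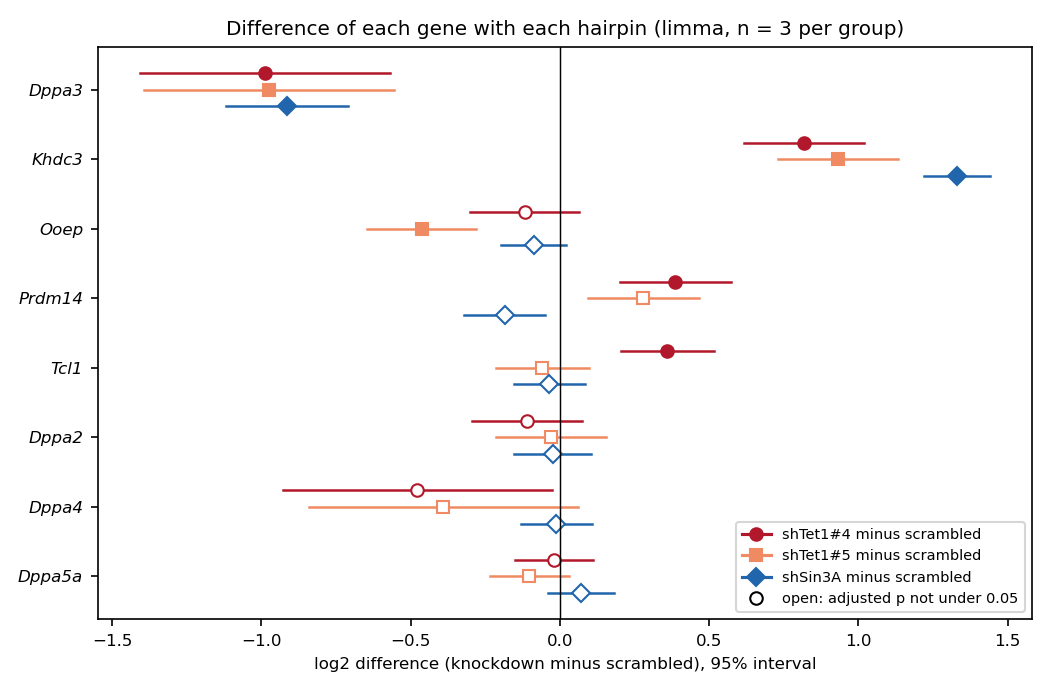
Log2 difference of each hairpin from the shScr arrays of its set (horizontal axis) for the 8 genes, with 95% intervals from limma (n = 3 arrays per group). Filled symbols passed at an adjusted p under 0.05. Dppa3 lies between -0.99 and -0.91 and Khdc3 between 0.82 and 1.33 for the 3 hairpins, and Prdm14 lies on opposite sides of 0 with the Tet1 hairpins and with shSin3A.

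Within each set, the order of group levels could be read for some genes only. For Dppa3 both Tet1 hairpins stood below shScr and did not differ from each other beyond their spread (shTet1#5 minus shTet1#4 0.01, 95% interval -0.41 to 0.43). For Khdc3 both stood above shScr, and their difference of 0.11 had an interval of -0.09 to 0.31. For Dppa2 and Dppa5a the neighbours in that order overlapped throughout the Tet1 set. The Prdm14 groups of that set did not overlap. Their gap between the hairpins was 0.0199, and the shTet1#5 minus shTet1#4 difference of -0.11 did not pass (limma adjusted p = 0.802).

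The genes most like each member over the 15 arrays, after the mean of its set was taken from each value, are given as a description, since arrays of a group share their treatment. Dppa3 was most like Cpsf6 (Pearson r = 0.949), Cxcl16 (0.949) and Zzz3 (0.944), of which Cxcl16 stood at -0.43, -0.56 and -0.55 with shTet1#4, shTet1#5 and shSin3A. Khdc3 was most like Lef1 (r = 0.976), which encodes a DNA-binding partner of beta-catenin, with differences of 0.91, 1.15 and 1.35, followed by Mcrip2 (0.974) and Llgl2 (0.971). Prdm14 was most like Epb41l4b (r = 0.961), with differences of 0.45, 0.31 and -0.21, then Tlcd5 (0.945) and Plekho1 (0.944). Tcl1 was most like Ankrd52 (r = 0.915), Abcg1 (0.901) and Cabp1 (0.900), and Ooep most like Mid1 (0.922), Taf4 (0.920) and Tcn2 (0.918). Dppa4 was most like Bex1 (r = 0.956), Nampt (0.943) and Ppm1b (0.918). All these r values include the pair of arrays that deviated alike, which held the lowest Dppa4 levels of their groups. The part of that pair in r was not tested. Dppa5a was most like the olfactory receptor gene Olfr513 (r = 0.919), Lin37 (0.858) and S100a11 (0.829), and Dppa2 most like Rps24 (0.845), Acbd7 (0.733) and Rabl3 (0.732).

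The subcortical maternal complex and its relatives among Nlrp and Khdc1 genes formed a list of 13, of which 12 were measured and 10 lay in the lowest 25% of levels. The counts of this and the following lists stand beside 8.81% of all probe sets called with both Tet1 hairpins in 1 direction and 24.8% called with shSin3A. With both Tet1 hairpins 0 of the 12 rose and 1 fell, the dim Nlrp9b (-1.04 and -0.61), whose close relatives may share its probes. With shSin3A 0 of the 12 rose and 4 fell, beside 24.8% of all probe sets, and the list median was -0.16. Zbed3 fell by 0.80 on the log2 scale (limma adjusted p = 6.66e-05), Tle6, the corepressor-like subunit of the complex, by 0.66 (0.00119), Nlrp4f by 0.61 and Nlrp9b by 0.89. Neither Zbed3 (0.08 and 0.04) nor Tle6 (0.11 and 0.06) passed with either Tet1 hairpin, and the Tet1 effect minus the Sin3A effect passed for both (0.86 and 0.74, limma adjusted p = 8.26e-07 and 4.43e-04). Padi6, Nlrp5 and Nlrp2 did not pass with any hairpin. With shSin3A, Khdc3 was thus higher, Tle6 and Zbed3 were lower, and Ooep was not called.

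Of 23 measured genes with other maternal roles, 2 rose and 1 fell with both Tet1 hairpins, and 4 rose and 0 fell with shSin3A. Cnot6l, a deadenylase that clears maternal messenger RNA, rose with all 3 hairpins (0.63, 0.61 and 0.69), as did the ubiquitin hydrolase gene Uchl1 (0.32, 0.46 and 0.30). Lin28a, an RNA-binding repressor of let-7, fell with both Tet1 hairpins (-0.42 and -0.24) and stood at -0.0035 with shSin3A. With shSin3A, the histone demethylase gene Kdm1b (0.34) and the maintenance methyltransferase gene Dnmt1 (0.25) also rose. Oocyte identity genes had 0 of 20 called with both Tet1 hairpins. With shSin3A 1 fell, Zp3, a gene of the egg coat (-0.75), which was also lower with shTet1#4 (-0.49).

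Genes that work with PRDM14 or are repressed by it formed a list of 13. With both Tet1 hairpins 5 of the 13 fell and 0 rose (8.81% of all probe sets were called), and with shSin3A 3 fell and 2 rose (24.8%). The list medians were -0.24 with shTet1#4, -0.07 with shTet1#5 and 0.04 with shSin3A. Fgfr2, an FGF receptor (-0.9995 and -0.70), and Dnmt3b, a de novo methyltransferase (-0.99 and -0.64), fell with both Tet1 hairpins. Dnmt3l, a cofactor of the de novo methyltransferases in the same list, rose with shTet1#5 (0.31, limma adjusted p = 0.00629) and did not pass with shTet1#4 (0.09). Dnmt3a fell with shTet1#4 (-0.33) and did not pass with shTet1#5 (-0.07). With shSin3A, Fgfr2 did not pass (0.13) and Dnmt3b rose by 0.27. The germ cell regulators Tfap2c (-0.71, -0.63 and -0.62) and Prdm1 (-0.59, -0.78 and -0.38) fell with all 3 hairpins, while the cofactor gene Cbfa2t2 (-0.25, -0.21 and 0.04) did not pass. Ehmt1, a histone methyltransferase gene, fell by 0.24 with shTet1#4 and by 0.23 with shTet1#5. Fgfr1, another FGF receptor gene of the list, rose by 0.36 with shSin3A and by 0.21 with shTet1#5. Gata4 and Gata6, also listed, did not pass with any hairpin. Any part of the Prdm14 level in the values of these genes was not tested. A list of 10 partners of DPPA3 in DNA methylation shares Dnmt3a, Dnmt3b and Dnmt3l with it. With both Tet1 hairpins 0 of the 10 rose and 2 fell, Dnmt3b and the targeted Tet1. With shSin3A 4 rose, Tet1 (0.31), Dnmt3b, Dnmt1 and Tet2 (0.21), and 1 fell, Dnmt3a (-0.18). Uhrf1, whose product DPPA3 restrains, did not pass with any hairpin (0.07, 0.13 and 0.01).

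Among 20 measured primordial germ cell genes, 3 rose and 4 fell with both Tet1 hairpins, and 4 rose and 7 fell with shSin3A, beside 8.81% and 24.8% of all probe sets. The list medians were -0.07 with shTet1#4, 0.0049 with shTet1#5 and -0.0014 with shSin3A. The receptor gene Kit (0.90 and 0.75), the RNA-binding factor gene Dazl (0.74 and 0.77) and Stra8 (0.49 and 0.54) rose with the Tet1 hairpins. Mael, a piRNA pathway gene (-0.49 and -0.28), fell, as did Sycp3 (-1.31 and -1.37), Prdm1 and Tfap2c. Kit and Dazl did not pass with shSin3A (0.02 and 0.06), while Stra8 rose there as well (0.235, limma adjusted p = 0.00938). Besides Tfap2c, the largest calls there were Ddx4 (-0.41), Tex19.1 (-0.40) and Rhox9 (-0.40). Mael rose there by 0.28, and its test of the Tet1 effect minus the Sin3A effect passed (-0.67, limma adjusted p = 7.81e-05).

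Of 7 measured genes of the Tcl1b family and the AKT kinases, 3 lay in the lowest 25% of levels. With shTet1#4 and with shTet1#5, 0 of the 7 were called, beside 11.6% and 13.8% of all probe sets. Akt1 fell by 0.58 with shSin3A (limma adjusted p = 2.09e-04), and Akt2 rose by 0.16 (0.0497). Genes that DPPA2 and DPPA4 are known to switch on in the 2-cell state had 11 of 23 members measured, and the Zscan4 genes and Dux were not analysed here. Of the 11, 4 fell with both Tet1 hairpins (8.81% of all probe sets were called) and 8 fell with shSin3A (24.8%). The list medians were -0.55 with shTet1#4, -0.28 with shTet1#5 and -1.08 with shSin3A. Zfp352 stood at -0.77, -0.72 and -1.30 and Tmem92 at -0.97, -1.05 and -1.08. Usp17lb (-0.55, -0.42 and -1.39) and Usp17lc (-0.62, -0.41 and -1.29) also fell with all 3 hairpins, and Usp17la fell by 1.75 with shSin3A. In all, 5 of the 11 are Usp17-like genes whose probe sets may not be separate. In the same arrays Dppa2 was not called. Against shScr, Dppa4 was called with the 2 Tet1 hairpins only, and only once the pair that stood apart was left out. Without that pair the Tet1 effect minus the Sin3A effect of Dppa4 passed as well (-0.42, limma adjusted p = 0.00468). Any link between the levels of Dppa2 or Dppa4 and those of the 2-cell genes was not tested.

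**Figure D3:**
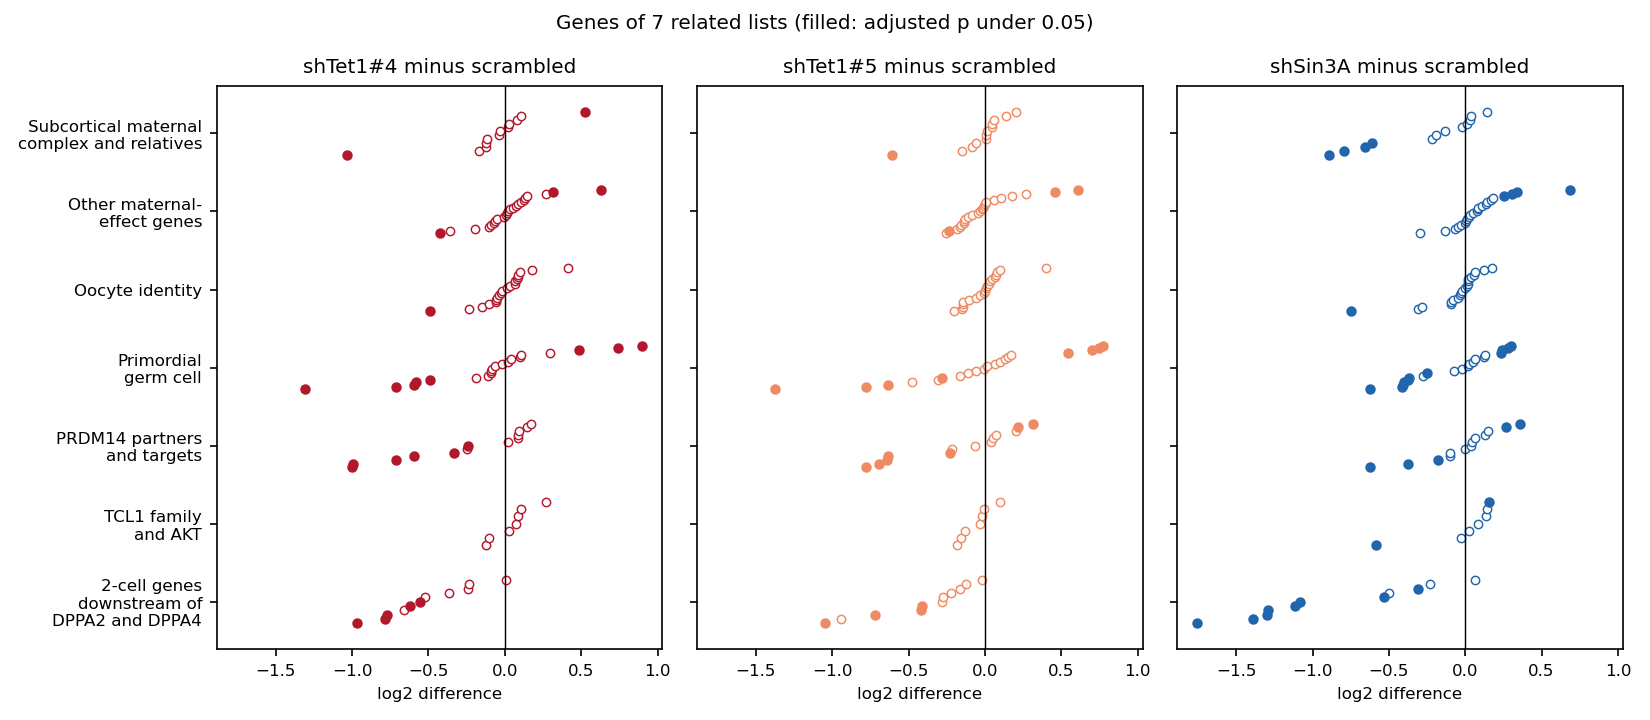
Log2 difference of every measured gene (points) in 7 related lists, in 1 panel per hairpin, against shScr of the same set. Filled points passed at an adjusted p under 0.05, and points within a list are sorted by value. With shSin3A, 8 of 11 genes of the 2-cell state fell, and of the oocyte identity genes 1 of 20 was called.

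Markers of other cell types were read beside these results. The mean log2 level of 12 primitive endoderm markers was 6.36 to 6.51 with shTet1#4 and 6.39 to 6.49 with shTet1#5, against 6.18 to 6.43 with shScr, and 7.36 to 7.40 with shSin3A, against 7.34 to 7.40 with shScr. With both Tet1 hairpins 1 of the 12 rose, Sox7, and 0 fell, while 1 rose and 1 fell with shSin3A. Of 10 trophectoderm markers, 2 rose, Eomes and Gata3, and 1 fell, Krt7, with mean levels of 6.24 to 6.31 with shTet1#4 and 6.33 to 6.35 with shTet1#5, against 6.09 to 6.19 with shScr. With shSin3A 1 of the 10 rose and 4 fell (7.08 to 7.12, against 7.26 to 7.30 with shScr). Of 8 neuroectoderm markers 3 fell with both Tet1 hairpins, Pax6 (-0.64 and -0.49), Nes (-0.75 and -0.47) and Neurod1 (-1.76 and -1.23), and the mean level of the 8 was 6.97 to 7.07 with shTet1#4 and 7.11 to 7.18 with shTet1#5, against 7.37 to 7.40 with shScr. With shSin3A 1 of the 8 rose, Neurod1 (0.77), and 2 fell, Pax6 and Nes. The mean level of the 8 was 8.17 to 8.23 with shSin3A, against 8.17 to 8.25 with shScr. Of 11 measured fibroblast markers, 2 rose with both Tet1 hairpins, Thy1 and Vim, and 2 fell, Acta2 and Tagln, with mean levels of 6.65 to 6.77 with shTet1#4 and 6.68 to 6.77 with shTet1#5, against 6.76 to 6.89 with shScr. With shSin3A 1 of the 11 rose and 4 fell (8.003 to 8.13, against 8.30 to 8.38 with shScr). The 20 stem cell markers averaged 11.19 to 11.22 with shTet1#4 and 11.10 to 11.12 with shTet1#5, against 11.10 to 11.20 with shScr, and 11.67 to 11.69 with shSin3A, against 11.72 to 11.76 with shScr. Of these 20, 4 are members described above, and 3 of the 20 rose with both Tet1 hairpins, Tbx3, Klf4 and Tdgf1, and 3 fell, Lin28a, Fbxo15 and Dppa3. With shSin3A, Nanog, Klf2, Tbx3 and Dppa3 fell and Klf4 and Tfcp2l1 rose. The part of these shifts in the values of the 8 genes was not tested.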

How the data were processed

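Per the labels' protocols, RNA was prepared with a Qiagen column kit and labelled for Affymetrix arrays, which read 1 colour. The authors deposited log2 expression values for 21212 probe sets on 15 arrays. The submitters' processing notes name affy, RMA and limma with no version. RMA corrects background, quantile-normalizes arrays and summarises probes, and its settings are not given in the sources used here. Array means show that both sets were scaled separately. In the Tet1 set, Dppa3, Khdc3 and Dppa5a each have 8 distinct values over 9 arrays.

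In the platform annotation 18786 probe sets carried 1 symbol, 6 carried several and 2420 had no symbol. Differences were tested by limma 3.58.1 under R 4.3.3 (lmFit, eBayes, two-sided), with Benjamini-Hochberg adjustment over all probe sets, and called at 0.05. One fit held the 9 Tet1-set arrays and another the 6 Sin3A-set arrays, and the contrast of effects used all 15. The code was tested on simulated data with known answers. Members and lists were chosen with earlier results of these data known. Genes named follow a rule: all 8 members, the targeted genes, list genes called with both Tet1 hairpins, up to 4 per list called with shSin3A (cell type marker lists as counts and level ranges), the 3 probe sets most like each member, and the nearest measured neighbours. Other genes named were chosen after their values were seen. List genes are described by counts. Sequences are from RefSeq, GRCm38.p6. The number of arrays limits the precision.

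Alternatives were median centring, repeated quantile normalization, leaving out the lowest 25% of probe sets, a variance trend with robust moderation, other groups in the fit, a replicate block, leaving out each array, and leaving out the pair that deviated alike. A second probe set for a gene was not available as an alternative, since each of the 8 genes had 1.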

Additional observations from a re-analysis of the deposited data

Results flagged for a closer look

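Khdc3 and Prdm14 differed between the knockdowns by the test of the difference itself. For Khdc3 the mean Tet1 effect minus the Sin3A effect was -0.45 on the log2 scale (limma adjusted p = 0.00449), with differences of 0.82 and 0.93 for the Tet1 hairpins and 1.33 for shSin3A. For Prdm14 it was 0.52 (limma adjusted p = 0.00167), with differences of 0.39 and 0.28 for the Tet1 hairpins and -0.19 for shSin3A, of which the first alone passed. In both cases the knockdowns were measured in separate sets of arrays, and set and knockdown cannot be told apart. Groups of 3 arrays were not tested for single outlying arrays.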

How the results depend on the processing

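Scaling moved the median difference over all probe sets by at most 0.0179. Of 648 differences of the 8 genes under alternatives, 618 kept direction and side of the threshold, 11 gained a call, 4 lost one and 15 changed sign. The sign changes were all in differences that were not called. Dppa5a with shTet1#4 was 0.0034 after repeated quantile normalization and ran from -0.0508 to 0.0056 with single arrays left out. Between the Tet1 hairpins, Dppa3 was -0.0304 and Dppa4 -0.1739 without the pair that stood apart, and with single arrays left out they ran from -0.0754 to 0.1917 and from -0.1739 to 0.2545. Such ranges were -0.0932 to 0.0368 for Dppa2 with shTet1#5, -0.0548 to 0.0135 for Dppa2 and -0.0401 to 0.0186 for Dppa4 with shSin3A, and -0.2319 to 0.1300 for the Tet1 effect minus the Sin3A effect of Dppa3.

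Members called ranged from 3 to 4 with each Tet1 hairpin, from 2 to 3 with both and from 2 to 3 for the Tet1 effect minus the Sin3A effect, and stayed at 2 with shSin3A, when arrays were left out singly. Between the Tet1 hairpins 1 member, Tcl1, was called without the lowest 25% of probe sets or with trend and robust moderation, against 0. Probe sets called there were 30, but 61 and 48 under those settings, 0 with only both groups in the fit, 0 with a replicate block, 1 without the pair that stood apart and 0 to 36 with single arrays left out. With shSin3A they were 5261, and 3359 to 4944 with single arrays left out, the lowest without shSin3A replicate 2. Same-numbered arrays of different groups did not deviate together throughout (r = -0.287 to 0.517 in the Tet1 set, -0.274 to 0.0212 in the Sin3A set), so the numbers were not used as pairs. The replicate block changed no call of the 8 genes. The causes of these shifts were not tested.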

Other observations

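The 2 nearest measured genes on either side of each of the 8 genes, by order in a RefSeq table, were 24 genes that are no members. Of these, 3 were called with both Tet1 hairpins in 1 direction (12.5%, against 8.81% of all probe sets) and 11 with shSin3A (45.8%, against 24.8%). Rab27a, a vesicle-transport GTPase gene beside Khdc3, rose with shTet1#4 (0.58), shTet1#5 (0.60) and shSin3A (0.32), as Khdc3 did, while Unc13c on the other side did not pass with any of them. Nanog and Gdf3, on either side of Dppa3, did not pass with the Tet1 hairpins (0.10 and -0.02 for Nanog, 0.10 and 0.17 for Gdf3) and fell with shSin3A (-0.27 and -0.37). Ddx43, an RNA helicase gene beside Ooep, rose with shTet1#4 (0.71, limma adjusted p = 0.0135), and with shTet1#5 it stood at 0.42 (adjusted p = 0.105). Near Prdm14, Ncoa2 rose (0.48, 0.31 and 0.50) and Sulf1 fell (-0.65, -0.42 and -0.41) with all 3 hairpins.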
